A study of Danio rerio with 11 samples.

Results

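The cytosolic ribosomal protein genes of the zebrafish liver were compared between fish in an induced torpor-like state, fish exposed to low dose radiation, fish given both, and controls. The genes were taken by name from the tables of genes paired with a human ortholog: every gene named rps or rpl with a number, together with rpsa and rplp0, rplp1 and rplp2 where present. The rule found 58 genes of the 9387 in those tables and of 32520 in all, 22 named for the small subunit and 36 for the large subunit. All 58 were listed as one-to-one orthologs. They carried 57 distinct names, since 2 genes are named rpl37. One of these (ENSDARG00000034291) is paired with human RPL37. The other (ENSDARG00000076360) is paired with human COA1, an assembly factor of mitochondrial complex IV, so its name and its human partner do not match.

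The RNA came from livers of adult fish of strain AB, in 11 libraries used here. Controls, named 28.5-Ctrl (n = 2), were kept at 28.5 °C with 0 µM melatonin and 0 cGy. The torpor group (18.5-mel, n = 2) was acclimatised to 18.5 °C and given 24 µM melatonin, a hormone that reduces locomotion and arousal in fish, with 0 cGy. The radiation group (28.5-rad, n = 3) was kept at 28.5 °C with 0 µM melatonin and received 32.64 cGy to the whole body by the sample labels. Fish given torpor and radiation together, named 18.5-mel-rad (n = 4), had 18.5 °C, 24 µM melatonin and 32.64 cGy. Temperature and melatonin always changed together among these groups, so their parts cannot be told apart. The authors anaesthetised fish with tricaine before irradiation and describe no such handling of unirradiated fish. The parts of radiation and of this handling therefore cannot be told apart either. The sex of the fish is not given in the sources used here.

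A ribosome joins a small subunit, which reads the messenger RNA, to a large subunit, which forms the peptide bonds. The ribosomal proteins are made in near-equal numbers, and their messenger RNAs are among the most abundant of most cells. In vertebrates these messenger RNAs begin with a pyrimidine-rich stretch, the 5′ terminal oligopyrimidine (5′ TOP) motif, through which mTOR signalling and the RNA-binding protein LARP1 set their translation and stability when nutrients or temperature change. In the liver, the demand for ribosomes is high because hepatocytes secrete plasma proteins and, in female fish, the yolk precursor vitellogenin.

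The deposited tables hold, for each gene, a normalised count averaged across all libraries of the authors' fit, called the mean count below, and a log2 fold change with its standard error (SE) for each treated group over 28.5-Ctrl. They hold no value per library, so the error of each value below is that SE. Of the 58 genes, 57 had an adjusted p-value in every comparison. The gene without one was rpl9, with a mean count of 1.88 and an estimated mean of 4.49 or less in each of the 4 groups, which is too low to compare. For 55 of the 58 the mean count reached 10000, as it did for 295 genes in all, and the 58 genes together held 6.33% of all mean counts. The remaining genes besides rpl9 were rps27l, with a mean count of 2280, and the rpl37 paired with COA1, with a mean count of 125. The same 55 high-count genes recur below. A count per gene also depends on gene length, so levels were not compared between genes.

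Fish in the torpor-like state had lower normalised counts of ribosomal protein genes than controls. In 18.5-mel (n = 2) against 28.5-Ctrl (n = 2), 55 of the 57 genes tested were downregulated and 0 were upregulated, by a Wald test with Benjamini-Hochberg adjustment at an adjusted p of 0.1 and a fold change of 1.5. Of all 19554 genes tested, 9.65% were downregulated and 20.4% upregulated by the same rule. The median log2 fold change of the 57 genes was -3.05, against 0.25 over all genes tested. Across the 55 downregulated genes it ran from -3.53 to -2.46, a level 5.52 to 11.6 times lower, with SEs of 0.66 to 0.80 and adjusted p-values of 8.66e-05 to 0.00264. Only 1.98% of all genes tested had a lower log2 fold change than the median ribosomal protein gene.

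**Figure D1:**
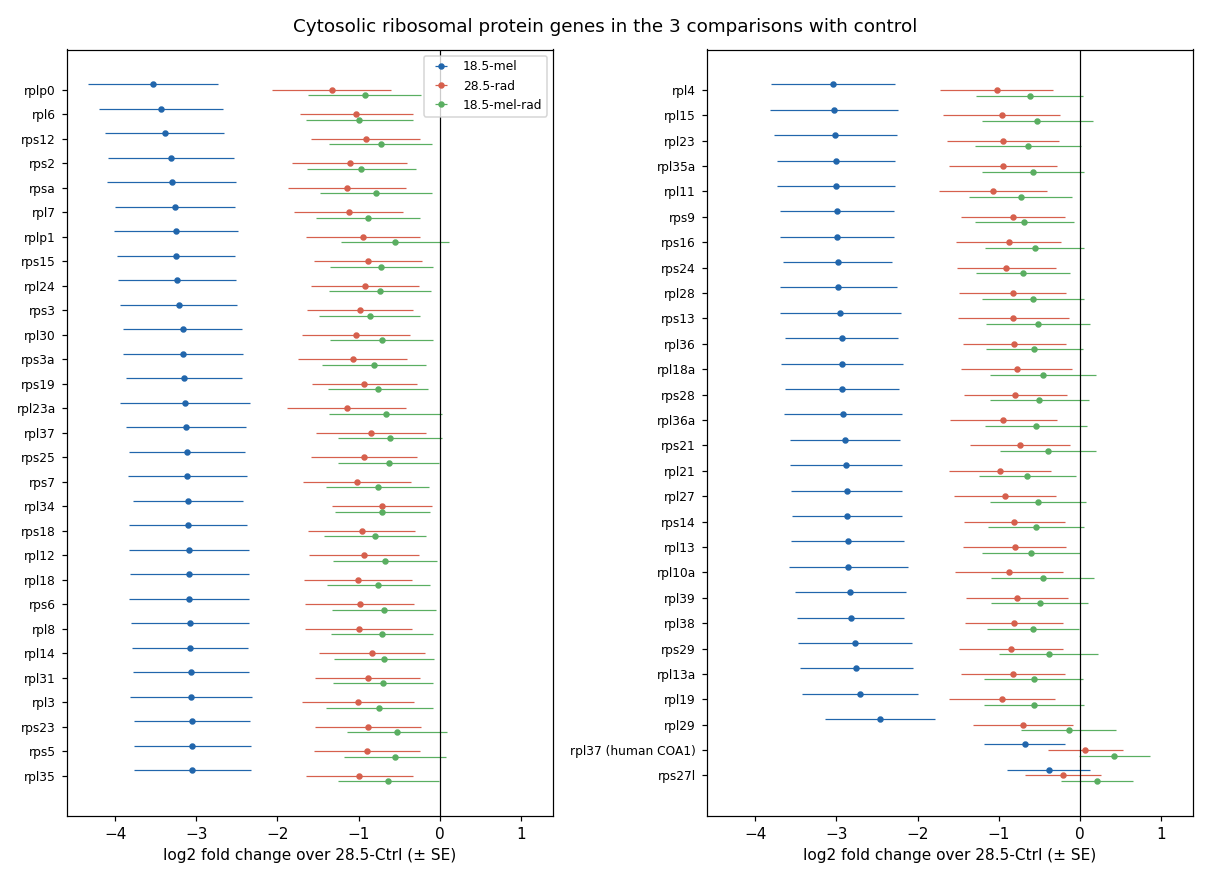
Log2 fold change over 28.5-Ctrl (x axis, bars ± SE) of the 57 ribosomal protein genes with an adjusted p-value, ordered by their value in 18.5-mel, with 18.5-mel in blue, 28.5-rad in red and 18.5-mel-rad in green. In 18.5-mel 55 genes lie between -3.53 and -2.46, while rps27l lies at -0.39 and the rpl37 paired with COA1 at -0.68.

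These high-count genes stood against a background that also moved. Of the 233 other tested genes whose mean count reached 10000, which include ribosomal protein genes outside the name rule, 104 (44.6%) were downregulated in 18.5-mel. Their median log2 fold change was -1.52, and 16.7% of them lay below the median ribosomal protein gene. The scale on which the libraries are compared therefore bears on the size of every value here. The estimated total of all mean counts in 18.5-mel fell by 2.14 on the log2 scale. Relative to that total, an alternative chosen after seeing the data, the median of the 57 genes is -0.92, 0 are downregulated and 2 are upregulated, namely rps27l at 1.75 (SE 0.51, adjusted p = 0.00149) and the rpl37 paired with COA1 at 1.45 (SE 0.50, adjusted p = 0.0067). Relative to the total outside the vitellogenin genes, the median is -2.06 and the same 55 genes were downregulated. Centred on the other genes whose mean count reached 10000, the median is -1.51, with 44 genes called lower and 1 higher. Each of these scales moves all genes of the comparison by the same amount, so the order of the genes is unchanged. Relative to the estimated total, the all-gene median of 0.25 also rises by 2.14, to above rps27l and the rpl37 paired with COA1. The share of all genes called on these scales is not given here. The error of the totals is not part of these SEs.

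**Figure D2:**
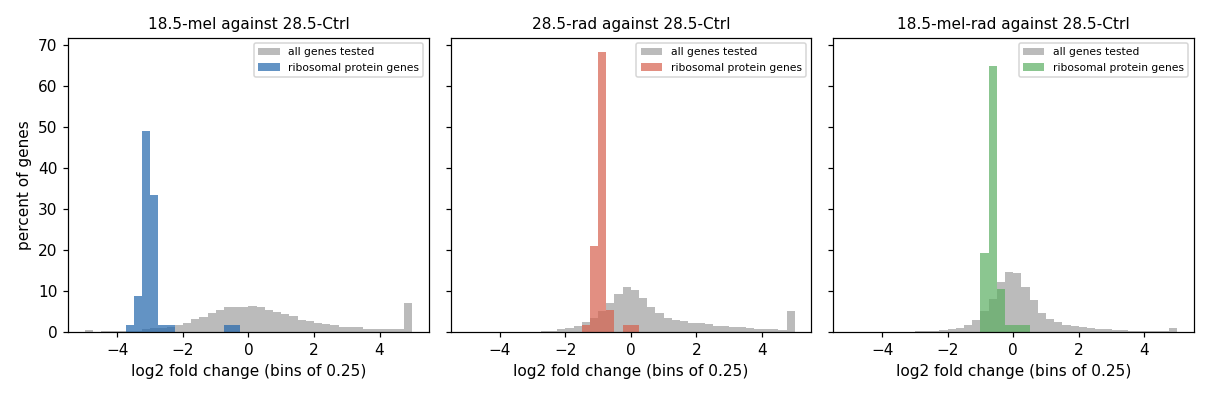
Percent of genes (y axis) in each bin of 0.25 of the log2 fold change (x axis), for all genes tested in grey and for the 57 ribosomal protein genes in colour, with values beyond 5 in either direction placed in the end bins. The ribosomal protein genes form a narrow peak at -3.05 for 18.5-mel, -0.93 for 28.5-rad and -0.63 for 18.5-mel-rad, against medians of 0.25, 0.20 and 0.03 over all genes tested.

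In the small subunit, 21 of 22 genes were downregulated in 18.5-mel, with a median of -3.07 over the 22. The lowest was rps12, a protein of the small subunit's beak, at -3.39 (SE 0.73, adjusted p = 8.66e-05). Its estimated mean count was 23070 in 28.5-Ctrl, 12240 in 28.5-rad, 13940 in 18.5-mel-rad and 2204 in 18.5-mel. The genes rps2 and rps3, whose proteins line the channel where messenger RNA enters, fell by 3.31 and 3.22 on the log2 scale. The gene rpsa, which encodes a protein also known in mammals as the laminin receptor, fell by 3.30 (SE 0.80). The gene rps6, whose protein is the classic substrate of S6 kinase downstream of mTOR, fell by 3.09 (SE 0.74, adjusted p = 0.000479). The gene rps19, the one most often mutated in human Diamond-Blackfan anaemia, fell by 3.15 (SE 0.71).

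In the large subunit, 34 of 35 tested genes were downregulated, with a median of -3.03 over the 35. The lowest of all members was rplp0, the base of the stalk that recruits translation factors, at -3.53 (SE 0.80, adjusted p = 0.000203). Its estimated mean count was 253500 in 28.5-Ctrl, 100600 in 28.5-rad, 133500 in 18.5-mel-rad and 21940 in 18.5-mel. These estimates depend on how a further group that was not analysed here is set, as described below. Over 4 ways of setting it, rplp0 ran from 205000 to 260000 in 28.5-Ctrl and 17700 to 22500 in 18.5-mel. Its stalk partner rplp1 fell by 3.25 (SE 0.77). The other stalk protein gene, rplp2, is named outside the tables of human orthologs and stood at -2.37 (SE 0.58, adjusted p = 0.000629). The gene rpl6 fell by 3.44 (SE 0.76). The gene rpl11, whose protein joins rpl5 and 5S ribosomal RNA in a particle that in mammals can bind MDM2, fell by 3.01 (SE 0.73). Of 8 listed genes whose proteins ring the exit of the peptide tunnel, 5 were found by name and the others were not counted. All 5 were downregulated, among them rpl23a, a docking site of the signal recognition particle, at -3.14 (SE 0.80).

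The smallest changes among the downregulated genes were those of rpl29 at -2.46 (SE 0.67, adjusted p = 0.00264), rpl19 at -2.71 (SE 0.71) and rpl13a at -2.75 (SE 0.70). The spread over the 55 genes (SD 0.19 on the log2 scale) was smaller than the SE of any one of them. Those SEs compare groups for 1 gene at a time, so they cannot settle the order of the genes within that range. That order was not tested, because a test would need values per library. The 55 genes were measured in the same libraries and are not independent of each other. The coefficient of variation implied by the SEs was 50.3% at the median of the 55 genes (45.8% to 55.4%). For the 1824 other genes whose mean count reached 1000, its median was 45.7%. It reflects the dispersion fitted over all libraries of the authors' fit, not a spread measured within these groups.

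The 2 other tested genes were not called in 18.5-mel. The gene rps27l encodes a close relative of rps27 that in human cells is a target of p53. Its estimated mean count was 2314 in 28.5-Ctrl, 2009 in 28.5-rad, 2679 in 18.5-mel-rad and 1772 in 18.5-mel. Its log2 fold change in 18.5-mel was -0.39 (SE 0.51, 95% interval -1.39 to 0.62, adjusted p = 0.638). Both zebrafish genes for rps27 itself, which the tables of human orthologs leave out, were downregulated: rps27.1 stood at -3.22 (SE 0.74) and rps27.2 at -2.61 (SE 0.66). The difference between rps27l and these genes was not tested. The rpl37 paired with COA1 had estimated mean counts of 113.9 in 28.5-Ctrl, 119.3 in 28.5-rad, 152.9 in 18.5-mel-rad and 71.0 in 18.5-mel. Its log2 fold change in 18.5-mel was -0.68 (SE 0.50, 95% interval -1.66 to 0.29, adjusted p = 0.335), while the rpl37 paired with RPL37 stood at -3.13. The levels of both rps27l and this gene in the 4 groups differed by less than those of any of the 55 high-count genes.

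**Figure D3:**
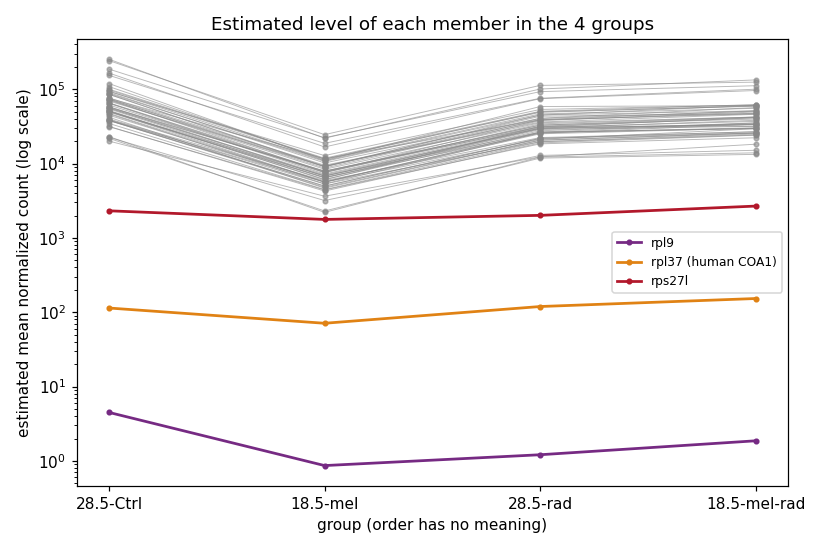
Estimated mean normalised count (y axis, log scale) of each of the 58 genes in the 4 groups (x axis), 1 line per gene, with rps27l in red, the rpl37 paired with COA1 in orange and rpl9 in purple. The 55 high-count genes share the low point in 18.5-mel, where rplp0 for example is estimated at 21940 against 253500 in 28.5-Ctrl.

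Radiation at 28.5 °C gave lower estimates without a call. In 28.5-rad (n = 3) against 28.5-Ctrl, 0 of 57 genes were called in either direction and 0 had an unadjusted p under 0.05 by the same Wald test, where 11.8% of all 17459 genes tested were called. The median log2 fold change was -0.93, and the 55 high-count genes lay between -1.33 and -0.70 with adjusted p-values of 0.256 to 0.511. The lowest were rplp0 at -1.33 (SE 0.73, 95% interval -2.76 to 0.10), rpl23a at -1.15, rpsa at -1.15, rpl7 at -1.12 and rps2 at -1.11. The highest of the high-count genes were rpl29 at -0.70, rpl34 at -0.71 and rps21 at -0.74. The estimates for rps27l and the rpl37 paired with COA1 were -0.20 (SE 0.47) and 0.07 (SE 0.46). At the wider threshold of an adjusted p of 0.4, 26 of 57 genes were called lower, where 11.6% of all genes tested were. Of the 233 other tested genes whose mean count reached 10000, 116 were called lower at that threshold. The median log2 fold change of the 233 was -1.01. The median of the 57 genes depended on the scale. It is 0.26 relative to the estimated total of all mean counts and -0.38 relative to the total outside the vitellogenin genes. Centred on the other genes whose mean count reached 10000, it is 0.08.

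In 18.5-mel-rad (n = 4) against 28.5-Ctrl, 0 of 57 genes were called and 0 had an unadjusted p under 0.05 by the same Wald test, where 1.45% of all 17979 genes tested were called. The median log2 fold change was -0.63. The 55 high-count genes lay between -0.99 and -0.14, with adjusted p-values of 0.71 to 0.991. The lowest were rpl6 at -0.99 (SE 0.66, 95% interval -2.29 to 0.31), rps2 at -0.97, rplp0 at -0.93, rpl7 at -0.88 and rps3 at -0.87. The highest of the high-count genes were rpl29 at -0.14, rps29 at -0.38 and rps21 at -0.39. The estimates for rps27l and the rpl37 paired with COA1 were above control, at 0.21 (SE 0.45) and 0.42 (SE 0.44), and neither was called. The median is 0.14 relative to the estimated total, -0.37 relative to the total outside the vitellogenin genes and -0.19 centred on the other genes whose mean count reached 10000. These comparisons all use the same 2 control libraries.

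The summed estimates give the level of the whole set. The 58 genes together had an estimated 3975229 normalised counts per library in 28.5-Ctrl, 2016881 in 28.5-rad, 2461724 in 18.5-mel-rad and 466476 in 18.5-mel. As a share of all estimated counts, which does not depend on the scaling between groups, the set held 6.02% in 28.5-Ctrl, 6.96% in 28.5-rad, 6.38% in 18.5-mel-rad and 3.11% in 18.5-mel. These estimates need a value for a further irradiated group at 18.5 °C that is part of the authors' mean but was not analysed here. Over 4 ways of setting it, the sum ran from 3400000 to 4060000 in 28.5-Ctrl and 1730000 to 2060000 in 28.5-rad. It ran from 2110000 to 2510000 in 18.5-mel-rad and 401000 to 476000 in 18.5-mel. The share ran from 5.95% to 6.52% in 28.5-Ctrl, 6.79% to 7.24% in 28.5-rad, 6.28% to 6.57% in 18.5-mel-rad and 2.79% to 3.15% in 18.5-mel. The share in 18.5-mel was the lowest under each of the 4 ways, and no replicate error can be given for it. The vitellogenin genes alone made up 55.5% of the estimated counts in 28.5-Ctrl. Of the counts outside them, the set held 13.5% in 28.5-Ctrl, 10.0% in 28.5-rad, 10.1% in 18.5-mel-rad and 3.16% in 18.5-mel, so that the irradiated groups lay below control on this measure and above it on the other.

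**Figure D4:**
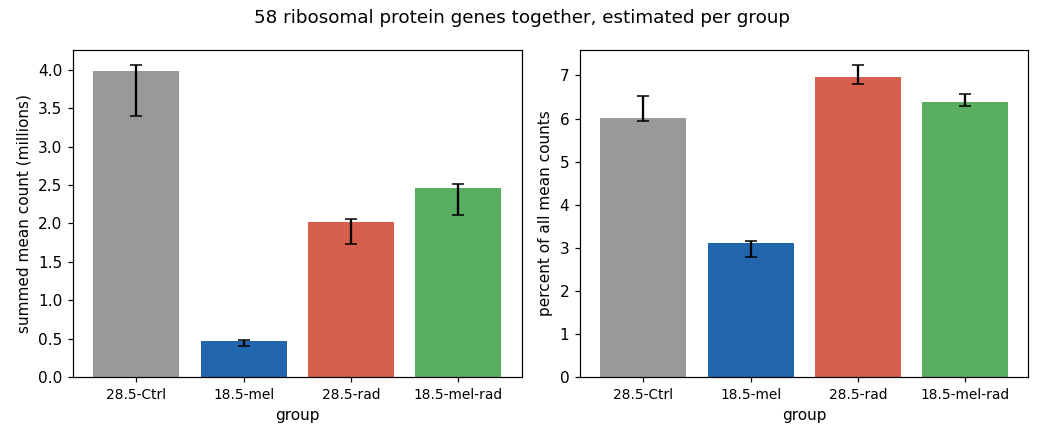
Estimated summed mean count of the 58 ribosomal protein genes (left) and their percent of all estimated mean counts (right) in the 4 groups, with bars at the main estimate and lines spanning the 4 ways of setting the group that was not analysed here, not replicate error. The share is 3.11% in 18.5-mel and 6.02% to 6.96% in the other groups.

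The irradiated fish at 18.5 °C with melatonin differed from unirradiated fish under the same conditions. In 18.5-mel-rad minus 18.5-mel, 56 of 57 genes were higher by a Wald test on the difference, adjusted over all genes, where 9.05% of all 19554 genes tested were higher. Of the 233 other tested genes whose mean count reached 10000, 96 were higher, with a median difference of 1.24 over the 233. The median difference of the 57 genes was 2.39 on the log2 scale. Across the 55 high-count genes it ran from 2.15 to 2.69, a level 4.44 to 6.47 times higher, with SEs of 0.57 to 0.69 and adjusted p-values of 0.000316 to 0.00421. The largest differences were those of rplp1 at 2.69 (SE 0.67, adjusted p = 0.000659) and rps12 at 2.66 (SE 0.63, adjusted p = 0.000377), then those of rplp0, rps15 at 2.53 and rps23 at 2.53. The smallest of the high-count genes were those of rpl19 at 2.15, rpl13a at 2.18 and rpl21 at 2.23. The gene not called was rps27l at 0.60 (SE 0.45, 95% interval -0.28 to 1.47). The rpl37 paired with COA1 was called at 1.11 (SE 0.43, adjusted p = 0.0447). On the scale of the estimated total the median is 1.03 and 2 genes were called higher, rplp1 at 1.33 and rps12 at 1.30. Centred on the other genes whose mean count reached 10000, the median is 1.29, with 42 genes called higher. The share of all genes called on these scales is not given here. The shared control was removed from the error of the difference, and with the variances simply added, which counts the controls where they do not enter, 2 genes were called.

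Between the irradiated groups, 18.5-mel-rad minus 28.5-rad, 0 of 57 genes were called and 0 had an unadjusted p under 0.05 by the same Wald test, where 20% of all 17979 genes tested were called. The median difference was 0.30, with adjusted p-values of at least 0.517. The highest estimates were those of rpl29 at 0.56 (SE 0.52), rpl23a at 0.48, rps29 at 0.47, rpl15 at 0.44 and rps27l at 0.42. The lowest were rpl34 at 0.00 (SE 0.52), rpl6 at 0.04, rps3 at 0.12, rps9 at 0.14 and rps2 at 0.14. For rps6 the difference was 0.30 (SE 0.56), and its 95% interval ran from -0.81 to 1.41, so a difference of 1 on the log2 scale in the upward direction could not be told from none. For rplp0 the difference was 0.41 (95% interval -0.79 to 1.60). The median is -0.12 relative to the estimated total, 0.02 outside the vitellogenin genes and -0.27 centred on the other genes whose mean count reached 10000.

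Whether the difference between irradiated and unirradiated fish was the same in both conditions was tested as an interaction, (18.5-mel-rad minus 18.5-mel) minus (28.5-rad minus 28.5-Ctrl). By a Wald test adjusted over all genes it was positive and called for 55 of 57 genes, where 9.52% of all 19554 genes tested were called higher. Of the 233 other tested genes whose mean count reached 10000, 132 were called higher, with a median of 2.37 over the 233. The median of the 57 genes was 3.33. The 55 genes ran from 3.01 to 3.94, with SEs of 0.83 to 1.01 and adjusted p-values of 0.00135 to 0.00574. The largest was that of rplp0 at 3.94 (SE 1.01, adjusted p = 0.00135), followed by rpsa at 3.67, rplp1 at 3.63, rpl23a at 3.62 and rps12 at 3.58. The smallest of the 55 were those of rpl13a at 3.01, rpl29 at 3.03 and rpl38 at 3.06. The interaction of rps27l was 0.80 (SE 0.65, adjusted p = 0.371), and that of the rpl37 paired with COA1 was 1.04 (SE 0.63, adjusted p = 0.217). On the scale of the estimated total the median is 0.78 and 0 are called higher, while rps27l at -1.75 and the rpl37 paired with COA1 at -1.51 are called lower. Centred on the other genes whose mean count reached 10000, the median is 1.22, with 0 called higher and rps27l called lower at -1.31. Outside the vitellogenin genes 55 were called higher. These scales move all genes alike, and the median over all genes tested was -0.54 before any such shift. The share of all genes called on them is not given here. The interaction rests on the 2 libraries of 18.5-mel and the 2 of 28.5-Ctrl, as does the comparison of 18.5-mel with control.

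**Figure D5:**
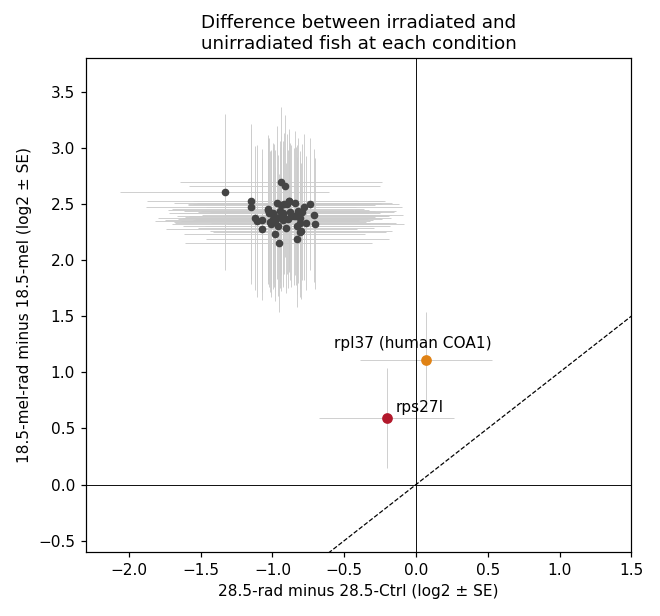
Difference between irradiated and unirradiated fish at 28.5 °C (x axis, 28.5-rad minus 28.5-Ctrl) and at 18.5 °C with melatonin (y axis, 18.5-mel-rad minus 18.5-mel), in log2 ± SE, 1 point per gene, with the dashed line marking equal differences. The 55 high-count genes lie between -1.33 and -0.70 on the x axis and between 2.15 and 2.69 on the y axis, and rps27l and the rpl37 paired with COA1 lie closer to the line.

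Further ribosomal protein genes fall outside the name rule, because only a separate annotation names them so. Of 23 such genes, 21 of 22 tested were downregulated in 18.5-mel, with a median of -3.02, and 0 were called in 28.5-rad or 18.5-mel-rad. The gene rps27a, which encodes ubiquitin joined to a ribosomal protein, stood at -2.86 (SE 0.68). The gene rack1, a scaffold protein on the small subunit, stood at -3.20, and rpl22l1, a relative of rpl22, at -3.69. The relative rpl7l1, with a mean count of 709, stood at 0.42 (SE 0.56) and was not called. The ribosomal proteins of mitochondria, which are encoded in the nucleus and do not have the 5′ TOP regulation typical of the cytosolic set, had 4 of 65 tested genes lower and 14 higher in 18.5-mel, with a median of 0.39. Over all genes tested 9.65% were lower and 20.4% higher, so these counts lie near the background.

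Other genes listed by name for 5′ TOP messenger RNAs were counted beside the ribosomal protein genes. The motif was not checked in these zebrafish genes. Of 25 tested, 17 were lower and 2 higher in 18.5-mel, with a median of -2.34. Over all genes tested 9.65% were lower and 20.4% higher. Of the 233 other tested genes whose mean count reached 10000, 44.6% were lower. In 28.5-rad 1 of the 25 was lower, where 2.08% of all genes tested were. In 18.5-mel-rad 0 were called, where 1.45% of all genes tested were. The elongation factor genes eef1a1l1, which delivers aminoacyl-tRNA, and eef2b, which moves the ribosome along the messenger RNA, stood at -3.07 (SE 0.74) and -3.16 (SE 0.87). The gene tpt1, a translationally controlled protein, stood at -3.55 (SE 0.81). The 2 called higher were hnrnpa1a at 0.89 (SE 0.40) and nap1l4b at 0.91 (SE 0.36). Of 15 tested genes of the mTOR and LARP1 branch, 3 were higher and 1 lower in 18.5-mel, near the background of 20.4% higher and 9.65% lower. The called genes were sesn2, an inhibitor of mTOR complex 1, at 4.35 (SE 0.87), rheb, its activator, at 4.90 (SE 1.34), eif4ebp1, a repressor of cap-dependent translation, at 0.99 (SE 0.45), and akt1, a kinase upstream, at -1.38 (SE 0.48). The gene larp1 stood at 0.61 (SE 0.64) and mtor at -0.39 (SE 0.34), and neither was called.

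Some markers of other cells were called in 18.5-mel or 28.5-rad. In 18.5-mel-rad 0 were called, where 1.45% of all genes tested were. Over all genes tested, 20.4% were called higher and 9.65% lower in 18.5-mel, and 9.69% were called higher in 28.5-rad. All 23 tested oocyte markers were higher in 18.5-mel, with a median of 7.12, and 12 of 23 were higher in 28.5-rad. Their summed estimate was 99400 to 106000 counts in 18.5-mel, against 812 to 865 in 28.5-Ctrl, 5000 to 5320 in 28.5-rad and 328 to 349 in 18.5-mel-rad. At or under 3 counts were 5 of 24 oocyte markers in 28.5-Ctrl (figla, mos, zar1l, zp2.3 and zp2.6), 1 in 28.5-rad, 8 in 18.5-mel-rad and 1 in 18.5-mel. All 8 vitellogenin genes were lower in 18.5-mel, with a median of -6.77. They held 49.8% to 55.7% of all estimated counts in 28.5-Ctrl but 1.29% to 1.75% in 18.5-mel. Their share was 25.0% to 32.3% in 28.5-rad and 31.2% to 36.8% in 18.5-mel-rad. In 28.5-rad, 8 of 11 enterocyte markers and 6 of 11 leukocyte markers were higher, and the summed enterocyte markers reached 84800 to 141000 counts against 27200 to 27900 in 28.5-Ctrl. In 18.5-mel, 0 of 11 enterocyte markers and 0 of 12 leukocyte markers were called. Of the erythroid markers tested, 0 of 5 were called in 18.5-mel and 0 of 4 in 28.5-rad. Of 16 hepatocyte markers tested, 2 were lower in 18.5-mel, near the background of 9.65%, and 0 were called in the other groups. Of the 17 found, 0 were at or under 3 counts in any group. All 16 had log2 estimates below control in 18.5-mel (median -1.08) and in 28.5-rad (median -1.50). Their direction for 18.5-mel depended on the scale. The 17 markers held 6.29% of all estimated counts for 28.5-Ctrl but 10.1% for 18.5-mel, with 5.86% for 28.5-rad and 9.58% for 18.5-mel-rad. Outside the vitellogenin genes, the control share was 14.1%, against 10.2% for 18.5-mel, 8.43% for 28.5-rad and 15.1% for 18.5-mel-rad. The 8 tested exocrine pancreas markers were not called in any comparison with control. All 8 estimates were above control in 18.5-mel (median 2.35), in 28.5-rad (median 2.01) and in 18.5-mel-rad (median 4.24). The summed estimate of the 9 found was 10500 to 16000 counts in 28.5-Ctrl and 54000 to 82500 in 18.5-mel. It was 42200 to 64400 in 28.5-rad and 207000 to 317000 in 18.5-mel-rad. The part of these cells in the ribosomal protein results was not tested. In a bulk sample, fewer cells of a type and less RNA per cell cannot be told apart.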

How the data were processed

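The authors prepared messenger RNA libraries and sequenced them to a stated minimum depth. They used FastQC for read quality, Cutadapt for trimming, STAR for alignment to GRCz11, HTSeq for counts and DESeq2 for the comparisons with control (versions not given in the sources used here). The deposited signal is the mean normalised count of a gene over the 14 libraries in 5 groups of the authors' fit. The deposited log2 fold changes and SEs are unshrunken, the deposited score is the Wald statistic, and the authors' p-values are 2-sided and adjusted by Benjamini-Hochberg. A deposited table exists per comparison for all genes and for genes paired with human orthologs, 6 in all. Values that depend on single libraries, including their depth, are not in these tables, and 3 libraries of a further irradiated group at 18.5 °C were not analysed here.

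P-values were recomputed from the log2 fold changes and SEs with the normal distribution and adjusted over those genes that have an adjusted p-value in the deposited tables (largest difference from the deposited values 4.96e-08). Genes were called at an adjusted p up to 0.1 with a log2 fold change of 0.58 or more in either direction. For differences between treated groups, the control variance was recovered per gene from the 3 SEs by non-negative least squares. This step was tested only on data simulated under the variance model that it assumes. Such a test cannot show that the model holds for the authors' SEs. Squared SEs of the members had ratios of 0.833 and 0.75 between comparisons, the ratios that the stated library numbers give. Group means were estimated from the mean count and fold changes, setting the further group to the mean of 28.5-rad and 18.5-mel-rad on the log2 scale. Named are, per comparison, the 5 members with the lowest and the 5 with the highest log2 value, and those uncalled in 18.5-mel. Also named are rpsa, rps3, rps6, rps19, rps27a and rpl13a, and some members of small lists (stalk, 5S particle, tunnel exit). Genes of the other lists were named as examples after their values were seen. Some genes of those lists are counted but not reported here by name. The members and lists were chosen with earlier results of these data known. Names came from the tables or from an annotation that held 29201 of the identifiers, and no coordinates were used. Reads shared with near-identical gene copies cannot be traced in these tables. The SEs come from a dispersion shared by all 14 libraries of the authors' fit, including the 3 not analysed here. No source states from how many fish each library came. The p-values therefore measure only the spread between libraries of that fit, not that within the compared groups alone. Python 3.11.15, pandas 2.3.3, numpy 2.4.6, SciPy 1.17.1 and matplotlib 3.10.9 were used.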

Additional observations from a re-analysis of the deposited data

Results flagged for a closer look

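The difference between irradiated and unirradiated fish was not the same at 28.5 °C and at 18.5 °C with melatonin for 55 of the 57 ribosomal protein genes tested, by the interaction in a Wald test adjusted over all genes. The median interaction was 3.33 on the log2 scale. Of all 19554 genes tested, 9.52% were called higher by the same rule and 22.3% lower. Of the 233 other tested genes whose mean count reached 10000, 132 were also called higher, with a median of 2.37 over the 233. The 233 include ribosomal protein genes outside the name rule. The positive calls of the ribosomal protein genes depend on the scale: relative to the estimated total 0 were called higher and 2 lower. Centred on the other genes whose mean count reached 10000, 0 ribosomal protein genes were called higher and 1 lower. These scales move all genes alike, and the share of all genes called on them is not given here. The genes picked out at the low end were rpl13a at 3.01, rpl29 at 3.03 and rpl38 at 3.06, and those at the high end were rplp1 at 3.63, rpsa at 3.67 and rplp0 at 3.94. A search for single samples far from their group was not possible, since the tables hold no value per library.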

How the results depend on the processing

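The calls of 55 genes in 18.5-mel, 56 in 18.5-mel-rad minus 18.5-mel and 55 in the interaction stayed within 1.5 times of those counts under a stricter adjusted p of 0.05, no fold minimum, a t distribution with 9 degrees of freedom, a minimum mean count of 50 and centring on the median of genes that reach it. The wider adjusted p of 0.4 called 26 genes in 28.5-rad, and adding variances without removing the shared controls called 2 in 18.5-mel-rad minus 18.5-mel. The remaining changes came with the scale. Relative to the estimated total, 2 genes were called in 18.5-mel, 2 in 28.5-rad, 1 in 18.5-mel-rad, 2 in 18.5-mel-rad minus 18.5-mel and 2 in the interaction (both lower, 0 higher), with medians of -0.92, 0.26, 0.14, 1.03 and 0.78. Relative to the total outside the vitellogenin genes, the medians were -2.06 in 18.5-mel, -0.38 in 28.5-rad, -0.37 in 18.5-mel-rad, 1.67 in 18.5-mel-rad minus 18.5-mel and 2.06 in the interaction. Centred on the median of the other genes whose mean count reached 10000, 1 gene was called in 28.5-rad and 1 in the interaction (lower, with 0 higher), and the medians were -1.51 in 18.5-mel, 0.081 in 28.5-rad, -0.19 in 18.5-mel-rad, 1.29 in 18.5-mel-rad minus 18.5-mel, -0.27 in 18.5-mel-rad minus 28.5-rad and 1.22 in the interaction. These 3 scales were chosen after seeing the data. Each moves all genes of a comparison alike, and the share of all genes called on them is not given here. Centring on the median of genes whose mean count reached 50, which shifted 18.5-mel by 0.18, 28.5-rad by 0.07 and 18.5-mel-rad by 0.00, put the rpl37 paired with COA1 at -0.0024 in 28.5-rad. No paired analysis was possible because the tables hold no value per library, and for the same reason no library could be left out, although 2 groups have 2 libraries each.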

Other observations

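The gene ddit4, an inhibitor of mTOR complex 1 that responds to stress, had no deposited adjusted p-value and entered no count. Its log2 fold change was 5.26 (SE 1.103) in 18.5-mel, 1.54 (SE 1.02) in 28.5-rad and 3.46 (SE 0.97) in 18.5-mel-rad. Why it had no adjusted p-value is not known here. Without values per library it cannot be checked whether a single library carries these estimates. Among the other genes listed by name for 5′ TOP messenger RNAs, eef2l2, named after elongation factor 2, had a mean count of 259. It stood at -4.65 (SE 0.91) in 18.5-mel. It was the 1 gene of that list called lower in 28.5-rad, at -2.18 (SE 0.83). The gene rps11l, with a mean count of 15.2, stood at -3.72 (SE 0.90) in 18.5-mel.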
